A study of Mus musculus with 6 samples.

Results

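The Kruppel-like factors described here are 10 genes of the mouse, Klf2, Klf3, Klf4, Klf6, Klf7, Klf9, Klf10, Klf11, Klf13 and Klf16, found by their gene name among the 56636 genes of the deposited table. The family was selected on the level of Klf2, which was higher in the libraries treated with 25-HC than in those given vehicle. That difference is therefore a description of the choice, and no test is given for any of the 10 genes in this contrast.

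Kruppel-like factors are transcription factors whose C-terminal zinc fingers bind GC-rich and CACCC sequences in promoters and enhancers. Outside the zinc fingers the proteins diverge. Klf2, Klf4, Klf6 and Klf7 are mostly activators, Klf3 recruits the CtBP corepressors, and Klf9, Klf10, Klf11, Klf13 and Klf16 recruit the SIN3 corepressor. In myeloid cells Klf2 is known for holding back NF-kB-driven inflammatory genes, Klf4 for monocyte differentiation and alternative activation, and Klf6 for promoting inflammatory activation.

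The data are bulk RNA-seq of RAW264.7, an established mouse macrophage-like cell line from a tumour induced by Abelson leukaemia virus. All cells carried the genotype given as WT and were grown in RPMI medium with fetal bovine serum. The compared groups are 3 libraries of cells exposed for 24 h to 25-HC, for which the labels give no dose, and 3 libraries of cells given vehicle for 24 h. The values are TPM, which correct for transcript length and set every library to an equal total, so the sequencing depth is unknown. Tested genes are the 12092 that averaged 1 TPM or more and entered a limma fit on log2(TPM + 1). The labels do not say whether the libraries come from separate cultures, so the spread between them may be technical. In bulk RNA, fewer cells of a type and less RNA per cell cannot be told apart.

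The vehicle libraries were unlike each other, and this touches every value below. The 25-HC libraries had 11971 to 12005 genes at 1 TPM or more, against 11238, 9492 and 11994 in vehicle 1, 2 and 3. Vehicle 1 and vehicle 2 read lower for longer transcripts. Set against the average 25-HC library on the log2(TPM + 1) scale, the median difference of vehicle 1 was 0.03 over the 3714 tested genes with the shortest transcripts and -0.70 over the 3710 with the longest. In vehicle 2 it was -0.55 and -1.64, and in vehicle 3 it was 0.06 in both. The members, and many of the listed genes, are therefore also compared with vehicle 3 by itself. Over tested genes, vehicle 3 was closer to the 25-HC libraries (Pearson r of log2(TPM + 1) 0.963 to 0.965) than to vehicle 1 (0.938) or vehicle 2 (0.807). Which vehicle library is typical of untreated cells was not tested. Values with the length trend removed are given further on. The macrophage markers Cd68, Tyrobp, Lyz2, Spi1, Csf1r, Itgam, Adgre1 and Ptprc were all in the fit, with a summed level of 3022 to 3078 TPM in 25-HC and 2164 to 2847 TPM in vehicle. Of these 8 genes, 4 were separated upward, meaning that no 25-HC value was as low as any vehicle value, and 1 was separated downward, beside 22.6% and 8.1% of all tested genes. The sum hides uneven markers. Itgam, Ptprc and Adgre1 were at 0.53, 0.28 and 1.15 TPM in vehicle 2, against 50.95, 4.04 and 11.95 TPM in vehicle 3. Cd68 was steady, at 824 and 818 TPM in these libraries. Endothelial markers, from a cell type where Klf2 and Klf4 are abundant, summed to 0.32 to 0.58 TPM in 25-HC and 0.10 to 0.51 TPM in vehicle, with Tek at 0 throughout. T cell, B cell, fibroblast and epithelial markers summed to at most 0.47 TPM in any library, and Cd3g and Pdgfra were at 0 throughout.

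Klf2, on whose difference the family was selected, stood apart from the other members in its ratio to vehicle 3, and the values here describe that choice. Its level was 19.2, 20.5 and 18.8 TPM in the 3 libraries with 25-HC, against 4.86, 1.82 and 4.69 TPM in vehicle 1, 2 and 3. The groups did not overlap, and vehicle 1 and vehicle 3 were nearly level while vehicle 2 was lowest. The means were 19.5 ± 0.859 TPM in 25-HC and 3.79 ± 1.71 TPM in vehicle (SD, n = 3 each), a 5.14-fold ratio. The 25-HC mean was 4.01 times the level in vehicle 1, 10.7 times that in vehicle 2 and 4.16 times that in vehicle 3. Other members had larger ratios to vehicle 1 (Klf7, 4.65) and to vehicle 2 (Klf9, 19.6, Klf3, 16.8, Klf6, 14.9, and Klf7, 12.05). By the ratio to vehicle 3, Klf2 ranked at position 45 of the 11852 tested genes with a value above 0 there. Its rank within each library, which no single scaling factor can move, was also higher with 25-HC. Klf2 lay above 58.9%, 60.7% and 58.2% of tested genes in the 25-HC libraries, against 36.4%, 34.5% and 25.8% in vehicle 1, 2 and 3.

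**Figure D1:**
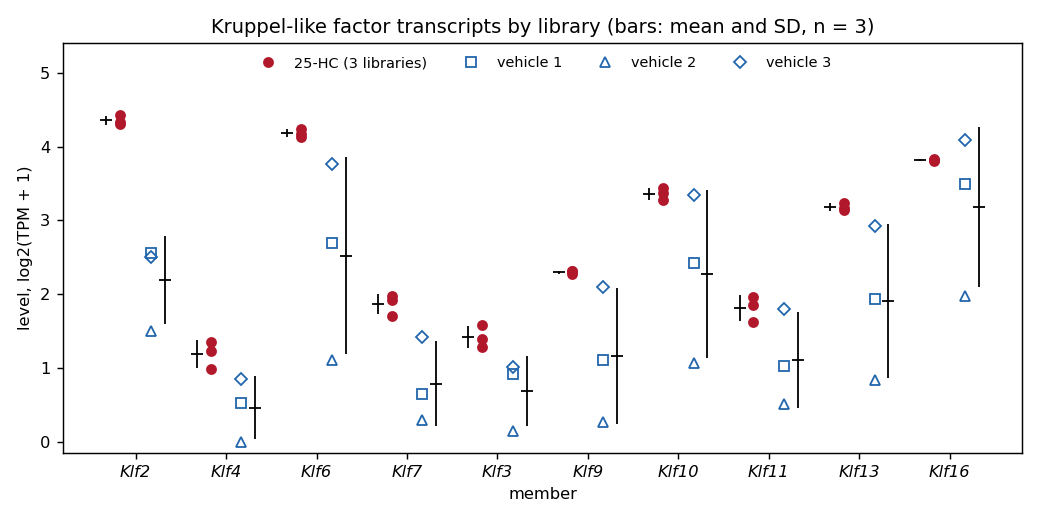
Level of each member in each library as log2(TPM + 1), with 25-HC as filled circles on the left and the 3 vehicle libraries as open symbols on the right of each gene. Bars give the mean and SD (n = 3). Klf2 in 25-HC (18.8 to 20.5 TPM) stands well above all 3 vehicle libraries (1.82 to 4.86 TPM), while for most other members vehicle 3 comes close to the 25-HC libraries.

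The promoters of Klf2 and Klf6 are shown because these were the members with the highest levels in 25-HC and they differ in a motif linked to Klf2. MEF2 factors, activated by the kinases MEK5 and ERK5, are known in endothelial cells to switch on Klf2 through a site in its promoter. The 250 bases before the annotated start were taken from RefSeq (build GRCm38.p6), at chr8:72318812-72319061 on the plus strand for Klf2 and chr13:5861239-5861488 on the plus strand for Klf6. Capitals mark matches, on either strand, to the MEF2 motif and to CCNCNCCC, a pattern that Kruppel-like and SP factors bind.
Klf2: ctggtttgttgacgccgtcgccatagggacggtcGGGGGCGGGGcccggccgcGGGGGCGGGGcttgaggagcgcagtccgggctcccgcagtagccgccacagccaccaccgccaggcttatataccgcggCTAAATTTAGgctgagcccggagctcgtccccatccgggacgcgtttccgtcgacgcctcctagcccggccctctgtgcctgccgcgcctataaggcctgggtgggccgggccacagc
Klf6: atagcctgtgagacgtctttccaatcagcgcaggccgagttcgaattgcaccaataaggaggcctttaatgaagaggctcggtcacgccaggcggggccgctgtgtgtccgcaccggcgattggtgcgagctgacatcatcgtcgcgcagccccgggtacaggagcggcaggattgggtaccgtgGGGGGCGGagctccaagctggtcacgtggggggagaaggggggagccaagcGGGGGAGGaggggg

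In the Klf2 promoter the MEF2 match is CTAAATTTAG at positions -118 to -109, counted from -1 at the last base before the start. It was the only MEF2 match in the promoters of the 8 members found in that table, and 2.92% of all 32851 promoter windows of this length hold such a match. Matches to CCNCNCCC, many of which overlap the GC box GGGCGG, occurred in 7 of the 8 members, with Klf9 as the exception, and in 45.9% of all windows. Klf2 had 4 matches, in 2 overlapping pairs, and Klf6 had 2. GGGCGG itself occurred on either strand in the same 7 members, and in 32.7% of all windows. These matches describe the letters in this window and do not show binding.

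Among the other activators, Klf6 had the highest level. Klf6 was at 17.9, 17.0 and 16.6 TPM in the 25-HC libraries, against 5.48, 1.15 and 12.6 TPM in vehicle 1, 2 and 3. The groups did not overlap, but vehicle 3 was much closer to 25-HC than the other vehicle libraries, and the 25-HC mean was 1.36 times its level. Klf6 averaged 17.1 ± 0.685 TPM in 25-HC and 6.42 ± 5.79 TPM in vehicle (SD, n = 3 each). Klf7, best known from neurons and adipocyte differentiation, was at 2.91, 2.27 and 2.77 TPM in 25-HC, against 0.57, 0.22 and 1.67 TPM in vehicle 1, 2 and 3. It did not overlap either, at 1.59 times the level in vehicle 3.

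Klf4, the pluripotency and monocyte differentiation factor, was near the floor of these libraries. Its level was 1.35, 1.55 and 0.98 TPM in 25-HC, against 0.44 and 0.80 TPM in vehicle 1 and 3, and it was listed at 0 in vehicle 2. Every 25-HC library was above every vehicle library, and the 25-HC mean was 1.62 times the value of vehicle 3. Klf4 was the only member whose mean over the 6 libraries was below 1 TPM (0.853 TPM), so it was outside the fit across all genes. The 25-HC libraries themselves spread from 0.98 to 1.55 TPM.

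Klf3, the repressor that works through CtBP, was also low. It was at 1.44, 1.63 and 1.98 TPM in 25-HC, against 0.88, 0.10 and 1.02 TPM in vehicle 1, 2 and 3. The groups did not overlap, and vehicle 1 and vehicle 3 were close to each other. The 25-HC mean was 1.65 times vehicle 3, which was the largest such ratio after Klf2. On the log2 scale the Klf3 difference was 0.73 (SE 0.31), and it turned to -0.02 after removal of the length trend and to -0.08 after removal of the length and GC trend. Klf3 has a long transcript (5221 bases against a median of 3025 over tested genes).

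The members that recruit SIN3 lay on both sides of vehicle 3. Klf13, a regulator of T cell and cardiac genes, was at 8.02, 7.78 and 8.43 TPM in 25-HC, against 2.82, 0.79 and 6.61 TPM in vehicle 1, 2 and 3, with no overlap. Klf9, a target of glucocorticoid and thyroid hormone receptors, was at 3.95, 3.84 and 3.95 TPM in 25-HC, against 1.16, 0.20 and 3.29 TPM in vehicle. Both stood only a little above vehicle 3, at 1.22 times its level for Klf13 and 1.19 times for Klf9.

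Klf10 and Klf11, the TGF-beta-inducible early genes, overlapped between groups. Klf10 was at 9.83, 9.31 and 8.71 TPM in 25-HC, against 4.34, 1.09 and 9.12 TPM in vehicle 1, 2 and 3. Klf11 was at 2.60, 2.89 and 2.07 TPM in 25-HC, against 1.03, 0.42 and 2.46 TPM in vehicle. For both genes vehicle 3 lay within the range of the 25-HC libraries, and the ratio of the 25-HC mean to it was 1.02.

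Klf16, a repressor first studied in dopaminergic neurons, was lower with 25-HC than in vehicle 3. It was at 13.3, 13.1 and 13.0 TPM in 25-HC, against 10.2, 2.92 and 15.95 TPM in vehicle 1, 2 and 3. All 3 libraries with 25-HC were below vehicle 3 and above vehicle 1 and vehicle 2, so the groups overlapped. The 25-HC mean was 0.822 times the level in vehicle 3. The mean log2 difference of 0.64 (SE 0.56) fell to 0.03 without vehicle 2 and was 0.79 without vehicle 1.

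**Figure D2:**
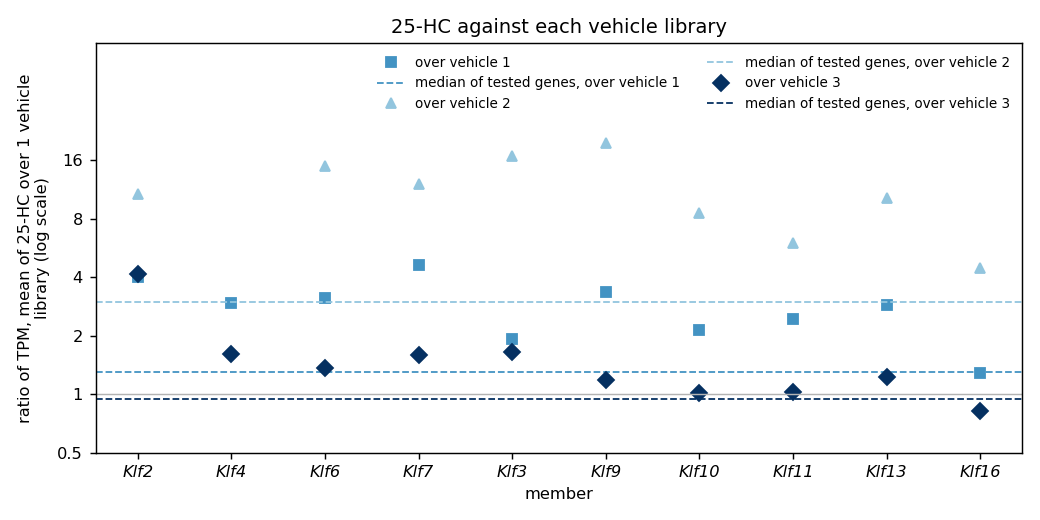
Ratio of the mean TPM of the 25-HC libraries to the TPM of each vehicle library, per member, on a log scale (Klf4 has no point for vehicle 2, where it is listed at 0). Dashed lines are the medians over tested genes, at 1.29, 2.98 and 0.946 for vehicle 1, 2 and 3. Klf2 has about the same ratio to vehicle 1 (4.01) and vehicle 3 (4.16), while the ratios of the other members to vehicle 3 run from 0.822 to 1.65.

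By count, 6 of the 9 members in the fit (Klf2, Klf3, Klf6, Klf7, Klf9 and Klf13) were higher in every 25-HC library than in every vehicle library, and none was lower in every 25-HC library. Over all 12092 tested genes, 22.6% were separated upward and 8.1% downward. Klf3 and Klf7 averaged under 1 TPM in vehicle and passed the filter through the 25-HC libraries, and 4 of the 7 others in the fit were separated upward. Klf2 chose the family by this same contrast, so nothing is read from the difference between these shares. The same 6 genes were separated upward after median-ratio rescaling of the libraries, where the shares over all genes were 18.4% upward and 18.1% downward. After removal of the length trend 5 members were (Klf2, Klf6, Klf9, Klf10 and Klf13), beside 17.1% of genes upward and 18.7% downward. The median log2 difference of the 9 members was 1.09, or 1.08 without Klf2, beside 0.52 over all tested genes. After that rescaling it was 0.81, or 0.72 without Klf2, beside 0.01 over all genes. Against vehicle 3 alone it was 0.25, or 0.22 without Klf2, beside -0.07 over all genes.

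Klf2 also differed from the other members in how it varied among the vehicle libraries. Its level in vehicle 1 was 1.04 times that in vehicle 3, whereas the other 9 members stood between 0.341 (Klf7) and 0.863 (Klf3) times their vehicle 3 level. The median over tested genes was 0.733. In vehicle 2, Klf2 was at 0.388 times its vehicle 3 level and the other members with a value above 0 were between 0.0608 (Klf9) and 0.183 (Klf16), with a median of 0.3002 over tested genes. The Klf2 transcript is short and GC-rich (1847 bases and 61.6% GC, against medians of 3025 bases and 49.95% over tested genes). Klf16, at 2674 bases and 60.4% GC, is the next shortest of the 10.

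The order of the members by level differed between the groups. By mean TPM with 25-HC it ran Klf2, Klf6, Klf16, Klf10, Klf13, Klf9, Klf7, Klf11, Klf3 and Klf4. The ranges of neighbours in this order were apart except for Klf7 with Klf11 and Klf3 with Klf4. In vehicle the order by mean was Klf16, Klf6, Klf10, Klf2, Klf13, Klf9, Klf11, Klf7, Klf3 and Klf4, and the ranges of all neighbours overlapped. Klf16 was nevertheless above Klf6 within each of the 3 vehicle libraries.

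The make-up of the family gives the same comparison within each library, free of the library's scale but not of the length trend in vehicle 1 and vehicle 2. Klf2 and Klf16, at 1847 and 2674 bases, have the shortest transcripts of the 10. The 10 genes summed to 80.5, 79.8 and 77.2 TPM in 25-HC, against 31.8, 8.71 and 58.2 TPM in vehicle 1, 2 and 3. Klf2 made up 23.9%, 25.6% and 24.3% of that sum in the 25-HC libraries, against 15.3%, 20.9% and 8.05% in vehicle 1, 2 and 3. Its share was higher in every 25-HC library, with vehicle 2 nearest and vehicle 3 farthest. Klf16 made up 16.5%, 16.4% and 16.8% in 25-HC, against 32.2%, 33.5% and 27.4% in vehicle, and did not overlap. The ratio of Klf2 to Klf16 was 1.45, 1.56 and 1.45 in 25-HC, against 0.475, 0.623 and 0.294 in vehicle 1, 2 and 3. The ratio of Klf2 to Klf6 overlapped, at 1.07, 1.21 and 1.14 in 25-HC and at 0.887, 1.58 and 0.372 in vehicle 1, 2 and 3, since Klf6 was very low in vehicle 2.

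**Figure D3:**
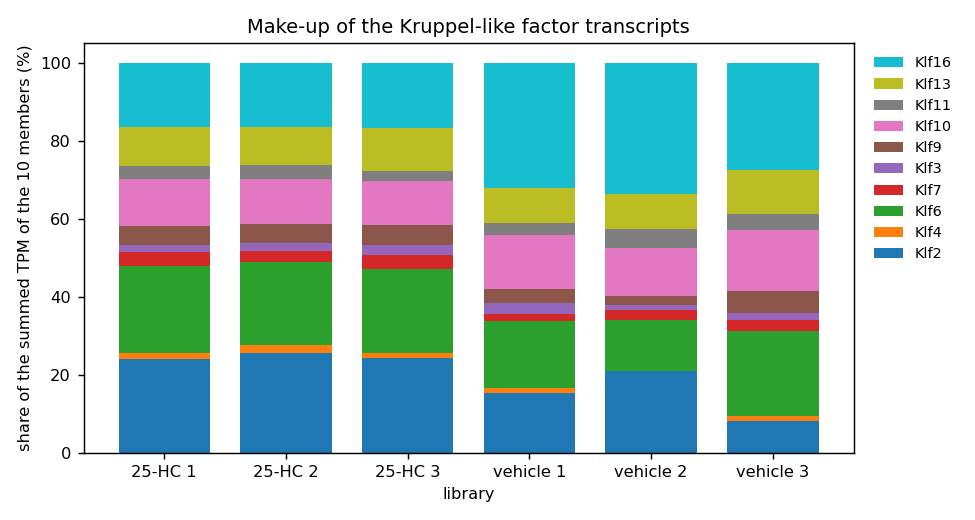
Share of each member in the summed TPM of the 10 genes, in percent, for the 3 libraries with 25-HC and the 3 with vehicle. The 25-HC libraries look alike, with Klf2 at 23.9% to 25.6%, whereas in vehicle Klf16 takes the largest share (27.4% to 33.5%) and Klf2 runs from 8.05% to 20.9%.

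Scaling altered the size of the differences. Klf2, which was chosen on this contrast in these same libraries, had the highest of the 9 in each of the 6 treatments plotted. Its log2 difference was 2.17 (SE 0.37) as deposited, 1.65 after median-ratio rescaling, 1.54 after quantile normalization, 1.80 after removal of the length trend and 1.97 after removal of the length and GC trend. Against vehicle 3 alone it was 1.85. After rescaling, Klf2 was at 15.2, 16.4 and 14.9 in 25-HC, against 5.03, 4.30 and 3.56 in vehicle 1, 2 and 3, so that the vehicle libraries drew together. Klf6 was next in 5 of these 6, with log2 differences of 1.66 (SE 0.66) as deposited, 1.19 after rescaling and 0.88 after removal of both trends. Against vehicle 3 alone Klf7 was next at 0.45, with Klf6 at 0.41. The rescaled values of Klf6 in vehicle stayed spread, at 5.67, 2.72 and 9.59, against 14.1, 13.6 and 13.1 in 25-HC.

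**Figure D4:**
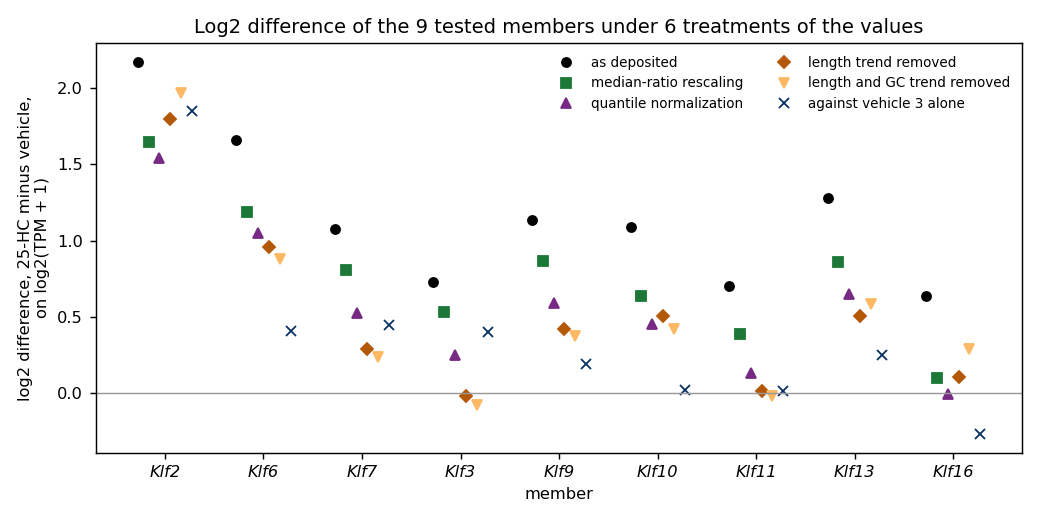
Log2 difference (25-HC minus vehicle, on log2(TPM + 1)) of the 9 members in the fit, under 6 ways of treating the values. Klf2 stays between 1.54 and 2.17 throughout, whereas Klf3, Klf11 and Klf16 come to or below 0 in some of them.

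Over the 6 libraries, the genes whose pattern was most like that of Klf2 were Xaf1, Fcgr1, Rtp4, Usp18 and Phf11d. Pearson r of log2(TPM + 1) was 0.998 for Xaf1 and 0.996 for Phf11d, the first and last of these 5 among the 8441 genes that averaged 5 TPM or more. The libraries share the 2 group levels and the low vehicle 2, so high values of r are common, and no p is given. Xaf1, an apoptosis regulator induced by interferon, was at 11.9, 13.1 and 11.5 TPM in 25-HC, against 3.21, 1.60 and 3.17 TPM in vehicle 1, 2 and 3. Usp18, a protease that removes ISG15, was at 17.1, 20.4 and 18.4 TPM in 25-HC, against 2.70, 1.02 and 2.98 TPM in vehicle. Both genes were nearly level between vehicle 1 and vehicle 3, a likeness to Klf2 that is part of how they were chosen. Phf11d was at 9.38, 9.95 and 10.2 TPM in 25-HC, against 3.55, 1.62 and 3.92 TPM in vehicle. Fcgr1, whose product binds IgG with high affinity, had 34.9 ± 1.95 TPM in 25-HC and 17.9 ± 3.60 TPM in vehicle, and the interferon-induced Rtp4 had 14.1 ± 1.45 TPM in 25-HC and 1.82 ± 1.30 TPM in vehicle (SD, n = 3 each).

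Among the members, the pattern of Klf6 was followed most closely by Klf13 (r = 0.997), Klf9 (r = 0.994) and Klf10 (r = 0.991), and that of Klf2 by Klf4 (r = 0.924) and Klf3 (r = 0.923). These values are over the same 6 libraries and share the same low vehicle 2.

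The rest of the family was nearly silent. Of the other KLF genes, Klf5, Klf14 and Klf17 were at 0 in all 6 libraries, Klf15 was at most 0.09 TPM, and none of the 7 reached the mean of 1 TPM needed for the fit. Klf1, the erythroid factor, was at 0.34 to 0.52 TPM in 25-HC and 0.43 to 0.48 TPM in vehicle. Klf8 and Klf12, which bind CtBP like Klf3, were at 0.37 to 0.44 TPM and 0.15 to 0.27 TPM in 25-HC, against 0.01 to 0.29 TPM and 0 to 0.08 TPM in vehicle.

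SP factors bind the same GC-rich sites through the same type of zinc fingers. Of 9 SP genes 3 averaged 1 TPM or more, and Sp5 and Sp8 were at 0 throughout. None of the 3 was called by limma, beside 0.00827% of all tested genes, which is 1 gene. Among the 3, Sp3 was higher at an unadjusted p under 0.05, beside 8.24% of all tested genes higher and 2.94% lower. Sp1 was at 10.5, 8.96 and 9.72 TPM in 25-HC, against 3.05, 0.43 and 9.83 TPM in vehicle 1, 2 and 3. Sp2 was at 8.95, 7.90 and 8.23 TPM in 25-HC, against 4.34, 0.67 and 8.71 TPM in vehicle. For both, vehicle 3 lay within the 25-HC range. Sp3 was at 9.07, 8.94 and 8.85 TPM in 25-HC, against 1.65, 0.36 and 6.78 TPM in vehicle, without overlap.

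The corepressors and coactivators through which the family works ranged widely in level, from a mean over the 6 libraries of 2.05 TPM for the acetyltransferase gene Kat2b to that of Sin3b. All 13 listed cofactors were in the fit, none was called by limma in either direction, and 4 were higher at an unadjusted p under 0.05, beside 8.24% of all tested genes. Their median log2 difference was 0.96, beside 0.52 over all tested genes, and the median ratio to vehicle 3 was 0.994. Sin3b, a scaffold of the SIN3 complex, was at 130, 128 and 124 TPM in 25-HC, against 146, 138 and 128 TPM in vehicle 1, 2 and 3. Hdac1, a histone deacetylase of that complex, was at 101, 96.0 and 104 TPM in 25-HC, against 77.4, 6.68 and 115 TPM in vehicle. Ctbp1, the partner of Klf3, was at 66.0, 60.3 and 61.8 TPM in 25-HC, against 51.7, 21.1 and 67.9 TPM in vehicle. These 3 cofactors overlapped between groups, and 5 of the 13 were separated upward, beside the 22.6% of all genes given above. The 5 were Sin3a, Ncor1, Crebbp, Ep300 and Kat2b, named after their values were seen. Their transcripts are long, at 5206, 9037, 10820, 9566 and 4653 bases, against a median of 3025 over tested genes. Vehicle 1 and vehicle 2 read lower for longer transcripts, and a link to the separation was not tested. Rcor1, at 5684 bases, overlapped. Unlike Sin3b, Sin3a was at 12.05, 8.48 and 11.1 TPM in 25-HC, against 2.88, 1.06 and 5.85 TPM in vehicle. Its 25-HC mean was 1.80 times vehicle 3.

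The genes that feed into Klf2, namely the MEK5-ERK5-MEF2 cascade and ubiquitin ligases of which some are known to degrade Klf2, had 11 of 13 members in the fit. None was called by limma, 1 was higher at an unadjusted p under 0.05, beside 8.24% of all tested genes, and 3 were separated upward, beside 22.6%. The median log2 difference was 0.87, beside 0.52 over all tested genes, and the median ratio to vehicle 3 was 0.833. Map2k5, which encodes MEK5, was nearly even across libraries, at 45.6, 45.8 and 44.6 TPM in 25-HC and 42.0, 43.2 and 42.4 TPM in vehicle 1, 2 and 3, with no overlap and at 1.07 times vehicle 3. Mef2d, a MEF2 factor, was at 48.1, 47.9 and 47.9 TPM in 25-HC, against 26.4, 7.57 and 65.5 TPM in vehicle. Map3k3, a kinase above MEK5, was at 19.5, 18.1 and 20.2 TPM in 25-HC, against 6.71, 0.21 and 24.8 TPM in vehicle. Both Mef2d and Map3k3 were lower in each 25-HC library than in vehicle 3. Mef2a, Mapk7, Mef2b and Mef2c were added after their values were seen. Mef2a was at 7.13, 5.98 and 6.42 TPM in 25-HC, against 1.17, 0.28 and 3.49 TPM in vehicle, without overlap and 1.87 times vehicle 3. Mapk7, which encodes ERK5, was at 15.1, 16.3 and 15.8 TPM in 25-HC, against 10.5, 1.44 and 14.6 TPM in vehicle, also without overlap. Mef2b and Mef2c overlapped between groups.

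Of the genes for TGF-beta and glucocorticoid signalling, inputs of Klf10, Klf11 and Klf9, 9 of 10 were in the fit. None was called by limma, 1 was higher at an unadjusted p under 0.05, beside 8.24% of all tested genes, and 5 were separated upward, beside 22.6%. Their median log2 difference was 1.03, beside 0.52 over all tested genes, and the median ratio to vehicle 3 was 1.08. Tgfb1, the ligand, was at 82.0, 85.1 and 85.3 TPM in 25-HC, against 64.6, 67.9 and 80.2 TPM in vehicle 1, 2 and 3. Smad4, the shared signal transducer, was at 26.6, 22.3 and 25.9 TPM in 25-HC, against 11.2, 4.89 and 23.1 TPM in vehicle. Smad3 was at 15.7, 15.5 and 17.3 TPM in 25-HC, against 12.1, 9.78 and 21.5 TPM in vehicle. Tsc22d3, the glucocorticoid-induced leucine zipper gene, was chosen after its values were seen. It was at 9.99, 10.2 and 10.4 TPM in 25-HC, against 2.26, 0.69 and 2.98 TPM in vehicle, 3.42 times vehicle 3 and without overlap, while Nr3c1, the glucocorticoid receptor, was at 1.72, 1.33 and 1.75 TPM in 25-HC and 0.50, 0.06 and 1.22 TPM in vehicle. Nr3c1, one of the 5, averaged under 1 TPM in vehicle and passed the filter through the 25-HC libraries.

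Genes reported elsewhere as targets of Klf2 or Klf4 were spread in both direction and size. Only 8 of 15 were in the fit, since Thbd, Cxcr4, Mrc1 and Arg1 among others were at or near 0 TPM. None was called by limma, 2 were higher at an unadjusted p under 0.05, beside 8.24% of all tested genes, and 3 were separated upward and none downward, beside 22.6% and 8.1%. Their median log2 difference was 0.59, beside 0.52 over all tested genes, and the median ratio to vehicle 3 was 0.954. S1pr1 and Ptgs2 averaged under 1 TPM in vehicle and passed the filter through the 25-HC libraries, and without them 1 of 6 was higher at that p and 2 were separated upward. S1pr1, the sphingosine-1-phosphate receptor that Klf2 switches on in T cells, was chosen after its values were seen. It was at 2.12, 1.99 and 2.29 TPM in 25-HC, against 0.26, 0.03 and 0.74 TPM in vehicle 1, 2 and 3, without overlap and 2.88 times vehicle 3. Hif1a, also named after its values were seen, was at 9.70, 9.02 and 8.75 TPM in 25-HC, against 2.25, 0.38 and 7.20 TPM in vehicle. Hif1a did not overlap either, at 1.27 times vehicle 3. Of the inflammatory genes that Klf2 is known to restrain, the chemokine gene Ccl2 was at 550, 539 and 560.1 TPM in 25-HC, against 391, 44.6 and 503 TPM in vehicle. The cytokine gene Tnf was at 271, 274 and 274 TPM in 25-HC, against 226, 59.2 and 334 TPM in vehicle, and overlapped. The cell cycle inhibitor gene Cdkn1a, which Klf4 activates, was at 133, 130.4 and 137 TPM in 25-HC, against 129, 53.5 and 213 TPM in vehicle, and overlapped as well. Of the 8 in the fit, 2 genes had lower means with 25-HC, and these too were chosen after their values were seen. The cytokine gene Il1b was at 2.51, 2.65 and 2.14 TPM in 25-HC, against 5.02, 1.40 and 5.82 TPM in vehicle 1, 2 and 3, at 0.418 times vehicle 3. The integrin gene Itgb7 averaged 92.96 ± 7.29 TPM in 25-HC and 115 ± 46.7 TPM in vehicle (SD, n = 3 each), and both genes overlapped between groups.

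Several members, Klf2, Klf4, Klf6 and Klf10 among them, are also known as immediate early genes, which respond to stimuli without new protein synthesis. Other immediate early genes were mostly below vehicle 3. Of 21 listed, 18 were in the fit and none was called by limma, with 1 lower and none higher at an unadjusted p under 0.05, beside 2.94% and 8.24% of all tested genes. In that list 1 gene was separated upward and 1 downward, beside 22.6% and 8.1%. The gene that was lower, Egr2, averaged under 1 TPM in 25-HC and passed the filter through the vehicle libraries. The median ratio to vehicle 3 was 0.697, although the median log2 difference over all vehicle libraries was 0.62, beside 0.52 over all tested genes. Ier3 was at 141, 143 and 142 TPM in 25-HC, against 142, 21.4 and 236 TPM in vehicle 1, 2 and 3. Junb, an AP-1 subunit, was at 130.4, 130.4 and 129 TPM in 25-HC, against 122, 8.23 and 199 TPM in vehicle. Jund was at 99.1, 89.7 and 82.97 TPM in 25-HC, against 129, 66.1 and 123 TPM in vehicle. All 3 overlapped between groups and were lower in each 25-HC library than in vehicle 3, whereas Klf2 was 4.16 times its vehicle 3 level.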

How the data were processed

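RNA was sequenced from RAW264.7 cells, 3 libraries with 25-HC and 3 with vehicle, from kits of the TruSeq RNA type per the labels' protocols. The authors deposited TPM per gene for each library (total 1000000 TPM, 1000001 in 25-HC 2). The submitters' processing notes name HISAT2, StringTie, RSEM and build GRCm39; they give no versions, and whether reads were counted by strand is not given in the sources used here. All 6 libraries differed in their values.

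The 12092 genes that averaged 1 TPM or more were fitted with limma 3.58.1 (R 4.3.3) after a log2(TPM + 1) transformation (eBayes with a trend, two-sided, Benjamini-Hochberg adjustment over all of them, threshold 0.05), without a block. Log2 differences understate changes of low genes, and ratios are of TPM. A single gene with 3 libraries against 3 cannot reach an exact permutation p below 0.1. Separation means that the ranges of the groups do not touch. Transcript lengths and GC content are those of the longest GENCODE M21 transcript (92.1% of tested genes). The trends with them were removed by loess (span 0.75, degree 2) per library.

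Named were the 10 members, KLF and SP relatives averaging 1 TPM or more, the called genes of each other list or its 3 highest by mean TPM, and the 5 genes most like Klf2. Named outside this rule, after their values were seen, were low or silent relatives and list or marker genes, genes that passed the filter through 1 group, Tsc22d3, Nr3c1, S1pr1, Il1b, Itgb7 and Kat2b. Added likewise were Sin3a, Ncor1, Crebbp, Ep300, Hif1a, Mef2a, Mef2b, Mef2c and Mapk7. The members and lists were chosen with earlier results of these data known. Of the listed genes, 2 are not reported here and were left out of their lists. Python 3.11.15 and pandas 2.3.3 were used. Same-numbered libraries did not deviate together, so the numbers were not taken as pairs.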

Additional observations from a re-analysis of the deposited data

How the results depend on the processing

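The number of genes that limma called over the whole table, 1 higher and 0 lower (996 and 356 at an unadjusted p under 0.05), moved with most settings. It was 0 higher with a pseudocount of 5, with a mean of at least 5 TPM, and with the replicate number as a replicate block. It was 7 higher and 4 lower with no filter, 1 lower after median-ratio rescaling, 4 higher and 1 lower after quantile normalization, 16 and 3 after removal of the length trend, 12 and 1 after removal of the length and GC trend, and 547 and 765 against vehicle 3 alone, where vehicle has 1 library that is assumed to vary like the 25-HC libraries. Leaving out each library gave 0 to 671 higher and 0 to 51 lower, both highest without vehicle 3, and 9 and 4 without vehicle 2. The cause was not tested.

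Of the members, 6 were separated upward as deposited and 3 of the 5 with a mean of at least 5 TPM. Without vehicle 3 all 9 were, and the number otherwise ran from 4 to 8. Against vehicle 3 alone 1 member, Klf16, was separated downward. The log2 difference of Klf2 was 2.17 as deposited, 1.498 with a pseudocount of 5, 1.65 with median-ratio rescaling and 1.54 with quantile normalization, and ran from 1.83 without vehicle 2 to 2.35 without vehicle 1. Without vehicle 3 the log2 difference was 2.33 for Klf2 and 2.28 for Klf6. That of Klf16 was -0.0014 after quantile normalization and -0.27 against vehicle 3 alone, that of Klf3 was -0.0153 after removal of the length trend and -0.0772 after removal of the length and GC trend, and that of Klf11 was -0.0151 in that last setting. The correlation of deviations of same-numbered libraries was -0.0128, 0.0555 and 0.0296 over 12092 genes. Depth is unknown for TPM, so the precision of Klf3, Klf4 and other members near 1 TPM cannot be given from counting.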
